A study of Mus musculus with 6 samples.

Results

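This account covers genes of ketone body, branched-chain amino acid, propionate and short- and medium-chain acyl metabolism in mouse liver, compared between the substrains Balb/cBy and Balb/c. The members were a list of 32 symbols, and a member was measured where a probe set of the array carried its symbol and no other. That held for 31 of the 32 members, out of 22180 genes measured in this way. Acsm3 was the exception, since its probe set also carries the symbol of Eri2, and it is not analysed here. The measured members fell into 4 ketone body genes, 16 branched-chain amino acid genes, 5 propionate genes and 6 genes of acyl activation and conjugation.

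Liver RNA of 6 male mice was hybridised to 1-colour Affymetrix arrays, with 3 arrays of Balb/c and 3 of Balb/cBy. All mice were kept in individual cages and were 20 weeks old, and all had eaten a diet in which fat supplied 58% of the energy for 12 weeks, starting at 8 weeks of age. The labels name strain and sex and give no allele, no supplier and no group on another diet, so the effect of fat itself cannot be read from these arrays. Replicates are biological according to the titles. Array medians lay between 7.66 and 7.74 on the log2 scale. Pearson correlations between arrays ran from 0.972 to 0.988 over all 41345 probe sets. Hepatocyte markers, among them Alb, Ttr and Apob, were all measured (8 of 8), and their mean log2 level was between 13.3 and 13.4 in every array of both groups.

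In liver mitochondria, acetyl-CoA from fat oxidation is turned into acetoacetate and 3-hydroxybutyrate, which other organs use as fuel. Leucine, isoleucine and valine are first transaminated, mostly outside the liver, and their keto acids are then oxidised by the branched-chain keto acid dehydrogenase complex, of which liver is a main site. Isoleucine and valine end in propionyl-CoA, which is carboxylated and rearranged to succinyl-CoA, while short- and medium-chain acids are activated to acyl-CoA and can be conjugated to glycine. Mice of the line Balb/cBy are known to lack part of Acads, the gene of the mitochondrial dehydrogenase for butyryl-CoA, a short-chain substrate beside these routes.

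No member passed the test between the substrains, and most differences were small next to the spread of the mice. With limma, 0 of 31 members had an adjusted p under 0.05 (Benjamini-Hochberg over all genes), and 0% of all 22180 genes did. Each member's adjusted p was 0.999. At an unadjusted p under 0.05, 1 member was lower in Balb/cBy, which is 3.23% of the members beside 1.16% of all genes. Among higher values 0 members reached that level, beside 2.59% of all genes. A linear model without moderation gave 0 adjusted calls as well, with 1 member and 724 genes at an unadjusted p under 0.05.

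Means were lower in Balb/cBy for 22 of 31 members (71%), beside 50.9% of all genes. The median difference of the members was -0.05 on the log2 scale (Balb/cBy minus Balb/c), beside a median of -0.00282 over all genes. Single members ran from -0.43 to 0.34. The median standard error (SE) of a member was 0.14, so that the typical member differed by less than its own error. Without Balb/cBy replicate 1 the members' median was 0.0061 and 15 of 31 were lower. Leaving out Balb/cBy replicate 2 gave a median of -0.14 with 24 lower, and leaving out Balb/cBy replicate 3 gave -0.11 with 21 lower. Among the Balb/c arrays, the median was -0.04 with 17 lower when replicate 1 was left out, -0.15 with 23 lower for replicate 2, and -0.018 with 19 lower for replicate 3. A repeated quantile normalization of all 6 arrays gave -0.10 with 22 lower. The tilt towards lower means thus varied in size with the arrays and the scaling, and was not present without Balb/cBy replicate 1.

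The groups did not overlap for 3 members. Hibch and Oxct1 were lower in every Balb/cBy array than in any Balb/c array, which makes 6.45% of the members beside 3.51% of all genes. Hsd17b10 was higher in every Balb/cBy array, or 3.23% beside 4.32% of all genes. These shares rest on 2 members and 1 member. After a repeated quantile normalization of all 6 arrays the count was 8, with 6 lower and 2 higher, beside 8.44% of all genes in either direction. Hibch was then joined on the lower side by Aldh6a1, Hibadh, Mccc2, Pcca and Pccb, Hsd17b10 was joined on the higher side by Mcee, and Oxct1 was no longer among them. The upstream sequences of Hibch, Oxct1 and Hsd17b10 are shown because they are the members with separated groups in the deposited values, one of them in the opposite direction to the others. Each line gives the 250 bases before the RefSeq start on GRCm38.p6, read on the plus strand. Capitals mark the GC box, GGGCGG, and the CCAAT box on either strand, and neighbouring matches can overlap.

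Hibch, chr1:52844788-52845037, plus strand: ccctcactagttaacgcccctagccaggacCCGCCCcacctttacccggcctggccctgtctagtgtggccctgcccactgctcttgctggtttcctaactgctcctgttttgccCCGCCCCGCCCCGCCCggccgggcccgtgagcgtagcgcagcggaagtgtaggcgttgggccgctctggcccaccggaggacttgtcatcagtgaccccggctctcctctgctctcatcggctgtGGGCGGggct
Hsd17b10, chrX:152001646-152001895, plus strand: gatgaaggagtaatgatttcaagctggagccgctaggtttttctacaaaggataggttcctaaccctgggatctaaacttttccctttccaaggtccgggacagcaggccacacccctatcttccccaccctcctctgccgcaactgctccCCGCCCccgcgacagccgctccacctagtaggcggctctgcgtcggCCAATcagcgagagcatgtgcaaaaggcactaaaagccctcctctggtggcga
Oxct1, chr15:4026178-4026427, plus strand: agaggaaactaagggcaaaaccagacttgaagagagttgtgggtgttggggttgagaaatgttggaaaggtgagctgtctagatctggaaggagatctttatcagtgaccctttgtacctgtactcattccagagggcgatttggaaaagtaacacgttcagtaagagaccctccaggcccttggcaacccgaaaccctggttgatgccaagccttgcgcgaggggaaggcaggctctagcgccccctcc

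The Hibch window held 5 matches to the GC box and 0 to the CCAAT box. That of Hsd17b10 held 1 match to each, and that of Oxct1 held neither. Of the 31 members, 27 had an entry in the promoter table. Among those 27, 14 (51.9%) had a GC box in the 250 bases before a start, beside 35.4% of all 27025 genes of the table. The CCAAT box was found for 16 (59.3%), beside 37.5%. The E box CACGTG occurred before Mccc2 and Acsm5 only, 2 of 27 or 7.41%, beside 6.86% of all genes. These are matches of letters on both strands, and no test was made of them.

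Among the ketone body genes, means lay close together in both groups, with a median difference of -0.06 over the 4 members. Bdh1, the mitochondrial dehydrogenase that interconverts acetoacetate and 3-hydroxybutyrate, stood at 10.84, 10.54 and 10.96 in Balb/c replicates 1, 2 and 3, and at 10.31, 10.89 and 10.69 in Balb/cBy. The ranges overlapped, with Balb/cBy replicate 1 below all other arrays. Its difference was -0.15 (SE 0.17), with a 95% interval from -0.54 to 0.23. Oxct1 encodes the transferase that activates acetoacetate for use as fuel and is known to be nearly silent in hepatocytes. It stood at 7.79, 7.75 and 7.78 in Balb/c and at 7.65, 7.74 and 7.74 in Balb/cBy. The groups were narrowly apart, and the difference of -0.07 (SE 0.09) was smaller than its SE in the fit across all genes. Its exact permutation p (two-sided) was 0.1, the smallest that 3 arrays against 3 can give. After recentring the arrays on their medians the groups of Oxct1 overlapped. Acat1 is the mitochondrial thiolase of ketone body and isoleucine metabolism. It averaged 12.1 ± 0.34 over the Balb/c arrays and 12.0 ± 0.059 over the Balb/cBy arrays (n = 3 each, SD). Bdh2, a cytosolic dehydrogenase, averaged 8.73 ± 0.31 and 8.70 ± 0.35.

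**Figure D1:**
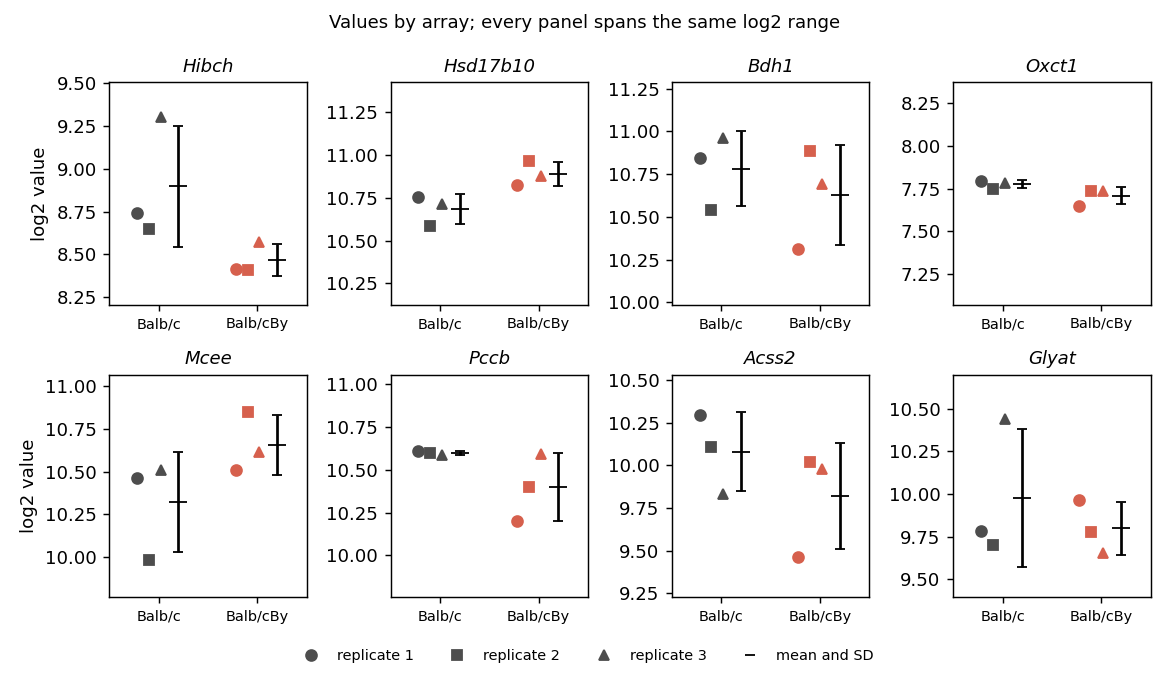
Log2 values of 8 members by array (vertical axes, log2 units, each spanning the same range), with Balb/c in grey and Balb/cBy in red, a symbol for each replicate number, and a bar for the mean and SD of the 3 arrays. The groups of Hibch, Hsd17b10 and Oxct1 lie apart, while those of Bdh1, Mcee, Pccb, Acss2 and Glyat overlap, and Hibch in Balb/c is spread by replicate 3 at 9.30.

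Genes of branched-chain amino acid breakdown were lower on average in Balb/cBy for 13 of 16 members, with a median difference of -0.07, and the members furthest from 0 were spread over several steps of the route. Hibch, the hydrolase that frees 3-hydroxyisobutyrate in valine breakdown, differed most. It stood at 8.74, 8.65 and 9.30 in Balb/c and at 8.41, 8.41 and 8.57 in Balb/cBy. The lowest Balb/c array lay just above the highest Balb/cBy array, and replicate 3 lay far above the other arrays of its group. The difference was -0.43 (SE 0.17, 95% interval -0.82 to -0.04), a fold of 0.741, and its exact permutation p was 0.1. Without Balb/c replicate 3 it was -0.23, and it was -0.56 without Balb/c replicate 2.

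The other valine genes among the members stood in the same direction at smaller size. Thus 5 of 5 were lower, beside 50.9% of all genes, with a median of -0.23. Acad8, a valine gene that is no member, differed by -0.04 (SE 0.14), and by 0.11 without Balb/cBy replicate 1. Hibadh, which oxidises 3-hydroxyisobutyrate, averaged 12.2 ± 0.22 over the Balb/c arrays and 11.9 ± 0.070 over the Balb/cBy arrays (n = 3 each, SD). Its difference was -0.23 (SE 0.12). Aldh6a1, the methylmalonate semialdehyde dehydrogenase that yields propionyl-CoA, averaged 11.5 ± 0.27 and 11.3 ± 0.093, a difference of -0.23 (SE 0.14). The difference of Aldh6a1 was -0.095 when Balb/c replicate 3 was left out and -0.36 when replicate 2 was, and its dimmer probe set gave -0.16. Hibadh differed by -0.15 and -0.35 in the same settings. Abat, the transaminase of 4-aminobutyrate and of the aminoisobutyrate made from valine, differed by -0.09 (SE 0.14), and by 0.0020 in its dimmer probe set. Echs1, the short-chain enoyl-CoA hydratase, differed by -0.07 (SE 0.15). Without Balb/c replicate 3 the median of the 5 valine members was -0.10. Without that array and Balb/cBy replicate 1 together it was -0.04, with 3 of 5 lower.

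Hsd17b10 ran the other way. This mitochondrial dehydrogenase of isoleucine breakdown, also a subunit of mitochondrial RNase P, stood at 10.76, 10.59 and 10.71 in Balb/c and at 10.83, 10.97 and 10.88 in Balb/cBy. The groups did not overlap, but Balb/c replicate 1 came close to Balb/cBy replicate 1, and Balb/c replicate 2 was the lowest array. The difference of Hsd17b10 was 0.21 (SE 0.09, 95% interval -0.01 to 0.42), a fold of 1.15, with an exact permutation p of 0.1. It ranged from 0.16 to 0.24 when single arrays were left out.

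The branched-chain keto acid dehydrogenase complex is built of the E1 subunits Bckdha and Bckdhb, the E2 core Dbt and the shared E3 subunit Dld, and its subunits did not differ alike. Dld averaged 9.61 ± 0.35 over the Balb/c arrays and 9.28 ± 0.012 over the Balb/cBy arrays (n = 3 each, SD), a difference of -0.34 (SE 0.16, 95% interval -0.71 to 0.04). Its Balb/c arrays ran from 9.24 in replicate 2 to 9.92 in replicate 3, and the Balb/cBy arrays lay within that range, between 9.27 and 9.29. The difference of Dld was -0.18 when Balb/c replicate 3 was left out and -0.52 when replicate 2 was. Bckdha differed by -0.04 (SE 0.19), Bckdhb by -0.0014 (SE 0.12) and Dbt by -0.05 (SE 0.09). Bcat2, the mitochondrial transaminase, differed by 0.04 (SE 0.10). None of these 4 intervals reached beyond -0.46 or 0.39. The E3 subunit also serves the pyruvate and oxoglutarate dehydrogenases. Whether Dld differed from the specific subunits was not tested.

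The kinase and the phosphatase that set the activity of the complex stood on opposite sides of 0. Ppm1k, the phosphatase that activates it, averaged 10.5 ± 0.31 over the Balb/c arrays and 10.1 ± 0.32 over the Balb/cBy arrays (n = 3 each, SD), a difference of -0.42 (SE 0.20, 95% interval -0.87 to 0.03). Here the highest of the 6 arrays was Balb/c replicate 3 at 10.82 and the lowest Balb/cBy replicate 1 at 9.71, and without both the difference was -0.08. Bckdk, the kinase that inhibits the complex, averaged 9.22 ± 0.091 and 9.28 ± 0.057, a difference of 0.06 (SE 0.09).

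Of the leucine genes, 3 of 3 had lower means in Balb/cBy, and each 95% interval included 0. Mccc2, the beta subunit of methylcrotonyl-CoA carboxylase, differed by -0.14 (SE 0.12), and its partner Mccc1, the biotin-carrying alpha subunit, by -0.04 (SE 0.15). Auh, the methylglutaconyl-CoA hydratase, differed by -0.07 (SE 0.14). Without Balb/cBy replicate 1, 1 of the 3 was lower.

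**Figure D2:**
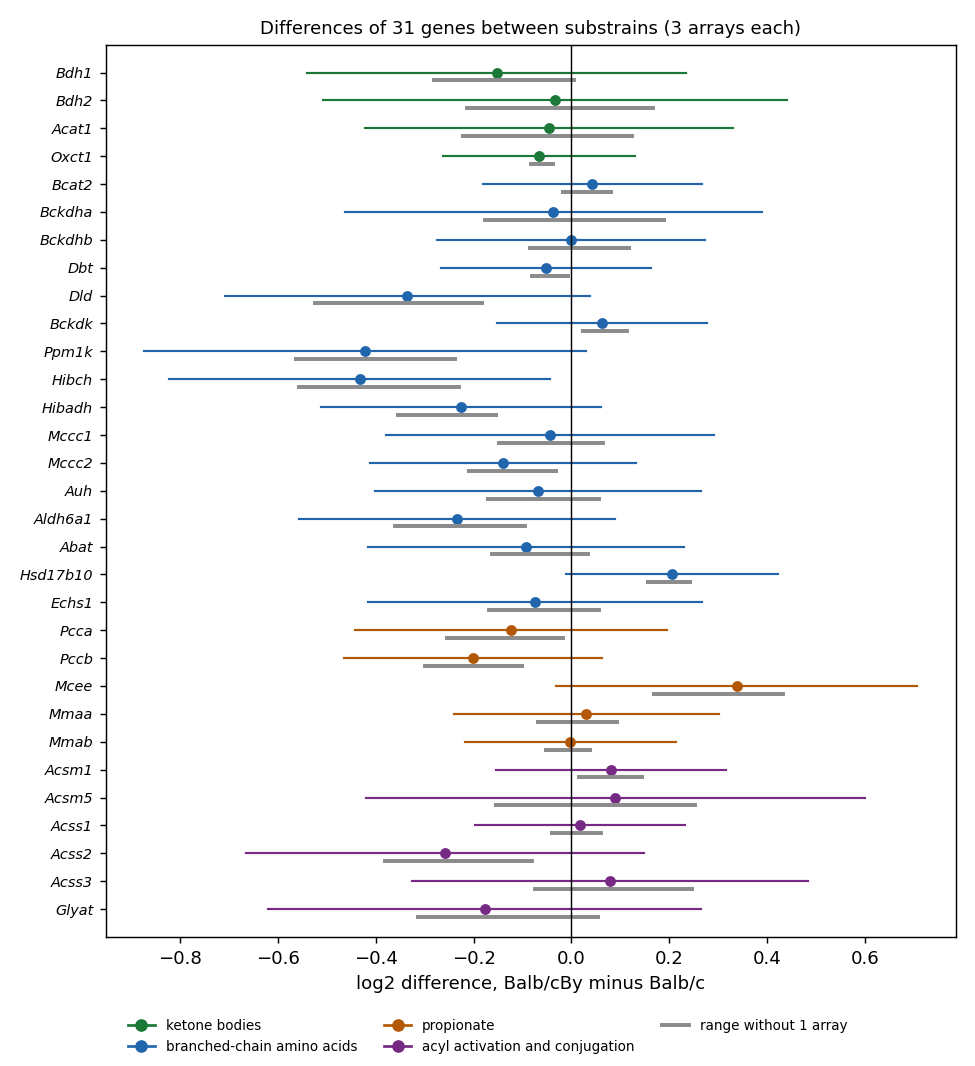
Log2 difference of each measured member (horizontal axis, Balb/cBy minus Balb/c) as a point with its 95% interval, coloured by subgroup, and below it in grey the range of the difference when single arrays are left out. The interval of Hibch, from -0.82 to -0.04, is the 1 that does not reach 0.

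Propionate genes had no common direction, with 3 of 5 lower and a median of -0.0021. Mcee, the epimerase of methylmalonyl-CoA, had the highest difference of all members. It stood at 10.47, 9.98 and 10.51 in Balb/c and at 10.51, 10.85 and 10.62 in Balb/cBy. The groups touched at 10.51, where Balb/cBy replicate 1 was marginally below Balb/c replicate 3, and Balb/c replicate 2 was low. The difference was 0.34 (SE 0.16, 95% interval -0.03 to 0.71), a fold of 1.26, and 0.17 without Balb/c replicate 2. Pccb, the beta subunit of propionyl-CoA carboxylase, stood at 10.61, 10.60 and 10.59 in Balb/c and at 10.20, 10.40 and 10.60 in Balb/cBy. The Balb/c arrays were almost equal, and Balb/cBy replicate 3 lay among them. Its difference was -0.20 (SE 0.11), or -0.10 when Balb/cBy replicate 1 was left out and -0.30 when replicate 3 was. That of the alpha subunit, Pcca, was -0.12 (SE 0.14). Mmaa and Mmab, which deliver and make the adenosylcobalamin cofactor of the mutase, differed by 0.03 (SE 0.12) and by -0.0021 (SE 0.09).

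Genes of acyl activation and conjugation had a median difference of 0.05, with 4 of 6 higher. Acss2, the cytosolic and nuclear acetyl-CoA synthetase, stood at 10.29, 10.11 and 9.83 in Balb/c and at 9.46, 10.02 and 9.98 in Balb/cBy. Only Balb/cBy replicate 1 lay below the Balb/c arrays. The difference was -0.26 (SE 0.18), and -0.08 without that array. Glyat, the glycine acyltransferase that makes hippurate and related conjugates, stood at 9.79, 9.70 and 10.44 in Balb/c and at 9.96, 9.78 and 9.65 in Balb/cBy. The difference was -0.18 (SE 0.19), and 0.05 without Balb/c replicate 3, the highest array. Without that array and Balb/cBy replicate 1 together it was -0.03.

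The medium-chain synthetases lie in a cluster, in the gene order Acsm5, Acsm2, Acsm1, Acsm4 and, after other genes, Acsm3, in RefSeq on GRCm38.p6. Acsm1 differed by 0.08 (SE 0.10) and Acsm5 by 0.09 (SE 0.22). Of their neighbours that are no members, Acsm2 differed by -0.05 (SE 0.08) and Acsm4 by -0.20 (SE 0.10). Acsm2 averaged 7.46 and 7.41 and Acsm4 7.38 and 7.18 in Balb/c and Balb/cBy, below the array medians. The groups of Acsm4 did not overlap, with Balb/cBy lower, as for 3.51% of all genes. Differences in the cluster had no common sign, but those of Acsm1, Acsm2 and Acsm5 were smaller than their SE. The mitochondrial acetyl-CoA synthetase, Acss1, averaged 7.82 ± 0.038 and 7.84 ± 0.10 (SD, n = 3 each), a difference of 0.02 (SE 0.09). Acss3, a mitochondrial synthetase that acts on propionate, averaged 7.69 ± 0.21 and 7.77 ± 0.32, a difference of 0.08 (SE 0.18). Acss1, Acss3 and Oxct1 were the members below the median of all genes by mean value.

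Much of the variation of the members ran between mice of a group and not between the groups. Within Balb/c, replicate 2 was the lowest of its group for 23 of 31 members (74.2%), beside 30.5% of all genes, while replicates 1 and 3 were highest for 14 and 15 members. Within Balb/cBy, replicate 1 was the lowest for 20 of 31 (64.5%), beside 35.2% of all genes, and replicate 2 was the highest for 20 of 31 (64.5%), beside 35.9%. Over the 6 arrays, Balb/c replicate 3 held the highest value of 12 members and Balb/cBy replicate 1 the lowest of 16. The mean deviation of the members from their own means was 0.10, -0.11 and 0.13 in Balb/c replicates 1, 2 and 3. In Balb/cBy it was -0.18, 0.06 and 0.0079. The substrains therefore overlapped in this measure.

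**Figure D3:**
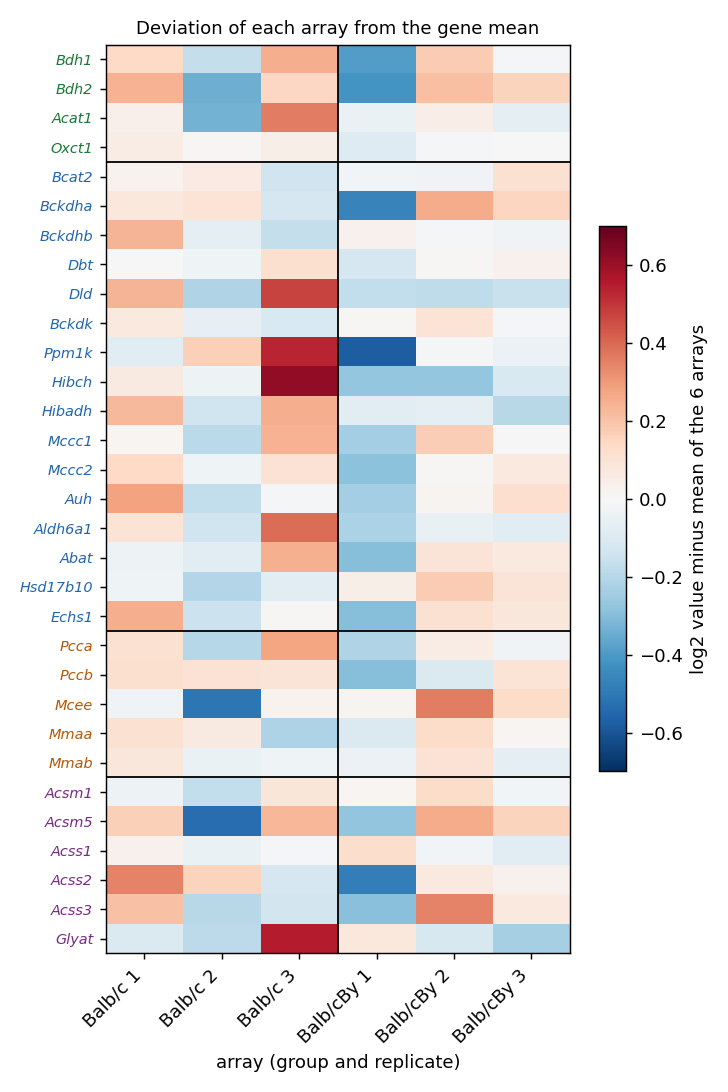
Log2 value of each member minus its mean over the 6 arrays (colour, red above and blue below), with members in rows by subgroup and arrays in columns, Balb/c to the left of the line. Balb/cBy replicate 1 and Balb/c replicate 2 are blue in most rows, with mean deviations of -0.18 and -0.11, while Balb/c replicate 3 holds the strongest red cells, in Hibch, Glyat, Ppm1k and Dld.

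Leaving out single arrays moved the subgroup medians more than the groups differed. The median of the branched-chain genes ran from -0.16 without Balb/c replicate 2 to 0.01 without Balb/cBy replicate 1. That of the ketone body genes ran from -0.22 without Balb/c replicate 2 to -0.01 without Balb/cBy replicate 1, and it was 0.12 without Balb/c replicate 3 and Balb/cBy replicate 1 together, a pair chosen after the values were seen. With the same pair left out, 13 of 31 members were lower and their median was 0.02. Adjusted calls among the members remained at 0 in each of these sets of arrays.

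**Figure D4:**
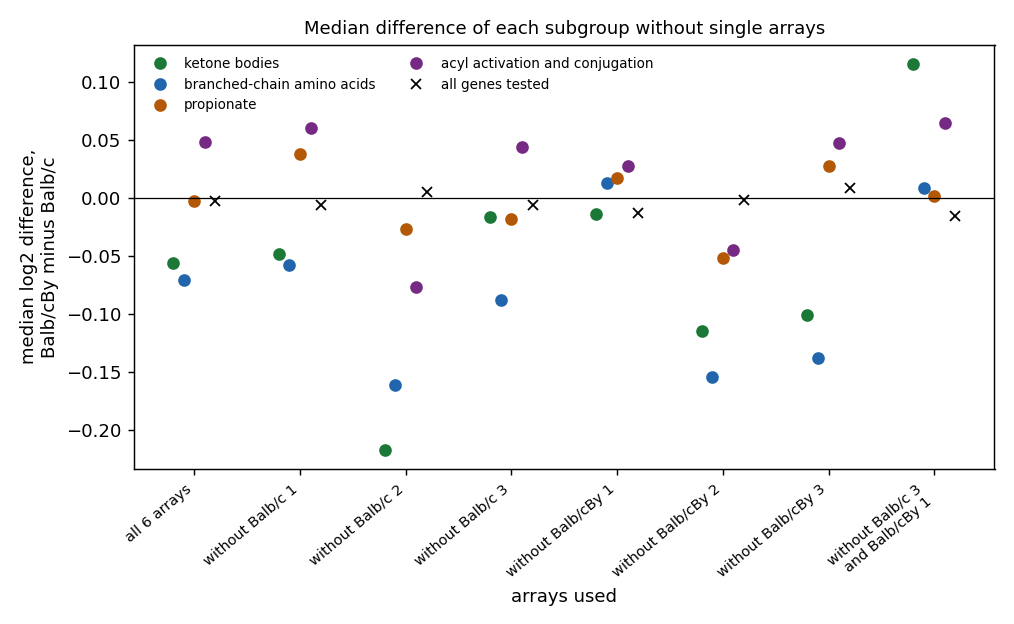
Median log2 difference (vertical axis, Balb/cBy minus Balb/c) of the members of each subgroup and of all genes tested, with all 6 arrays, without each array in turn and without 2 arrays together (horizontal axis). The ketone body and branched-chain medians lie at -0.22 and -0.16 without Balb/c replicate 2, and at -0.01 and 0.01 without Balb/cBy replicate 1.

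Of 25 other genes of these routes that were measured, 0 passed an adjusted p of 0.05. In this list 15 of 25 were lower, beside 50.9% of all genes, with a median of -0.01. An unadjusted p under 0.05 was reached by 1 gene in each direction, beside 1.16% of all genes lower and 2.59% higher. The groups did not overlap for 2 genes on the lower side and 1 on the higher, beside 3.51% and 4.32% of all genes. Acads, the dehydrogenase for which Balb/cBy is known, stood at 11.53, 11.46 and 11.28 in Balb/c and at 10.60, 10.78 and 10.93 in Balb/cBy. The groups were well apart, with a difference of -0.65 (SE 0.12, adjusted p = 0.476), further from 0 than that of any member. Slc16a6, a transporter known to export ketone bodies from hepatocytes, stood at 8.42, 8.64 and 8.46 in Balb/c and at 8.94, 8.82 and 8.65 in Balb/cBy. These groups did not overlap either, although Balb/cBy replicate 3 came close to Balb/c replicate 2, and the difference was 0.30 (SE 0.11). Mmut, the methylmalonyl-CoA mutase, differed by -0.17 (SE 0.16), and Mmachc, which processes cobalamin, by 0.37 (SE 0.17). Hadha, the alpha subunit of the mitochondrial trifunctional protein, differed by -0.15 (SE 0.11).

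Fewer hepatocytes and less RNA per hepatocyte cannot be told apart in whole liver. Hepatocyte markers had a median difference of 0.0063, with 4 of 8 lower. Macrophage markers were lower in 4 of 8, with a median of 0.01, but their mean log2 level was 9.35 in Balb/c replicate 3, where many members were high, and 9.97 and 10.17 in the other Balb/c arrays. In Balb/cBy it ran from 9.60 in replicate 1 to 10.06. Adipocyte markers (4 of 5 measured) had mean levels from 7.96 to 8.22 in Balb/c and from 7.85 in replicate 1 to 8.49 in Balb/cBy. The part of these cells in the members' values was not tested. Among the other marker lists, the median difference was -0.13 for lymphocytes (6 of 7 lower), 0.18 for neutrophils (4 of 6 higher), 0.23 for stellate cells (6 of 7 higher) and 0.07 for endothelial cells (5 of 6 higher). The lymphocyte marker that was higher, Jchain of antibody-secreting cells, differed by 1.12 (SE 0.28, limma adjusted p = 0.999) without overlap of the groups and is named after its values were seen. The median was -0.06 for cholangiocytes (3 of 4 lower), 0.10 for skeletal muscle (4 of 5 higher), -0.07 for exocrine pancreas (3 of 4 lower) and 0.18 for the 1 erythroid marker measured. In no list did a gene pass an adjusted p of 0.05.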

How the data were processed

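The authors deposited RMA values on the log2 scale for each probe set, per the submitters' processing notes for the method and from the values for the scale. RMA corrects background, equalises the distributions of the arrays and summarises probes, so differences common to most genes are removed. Version, annotation, filters and genome build: not given in the sources used. The platform annotation gave 1 symbol for 23521 probe sets, several for 1814 and none for 16010. A gene with several probe sets was read by the one that was brightest on average over the 6 arrays. The files give no detection calls, and no filter on low values was applied.

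Balb/cBy minus Balb/c was fitted over all 22180 genes with lmFit and eBayes (limma 3.58.1, R 4.3.3), with no covariate, and adjusted p-values (Benjamini-Hochberg, all genes) were called under 0.05. Levels are means ± SD, and the SE is moderated. The number of arrays limits the precision. Exact permutation tests were two-sided. In data simulated for this comparison over the 22180 genes, 200 genes were changed at once. The fit called 6 of 50 genes with a log2 change of 0.5 and 37 of 50 with 1. It called 49 of 50 each with 2 and with 4. With so many changed genes the Benjamini-Hochberg cut is looser than in the deposited values, where 0 genes passed. These counts can therefore overstate what the fit would find there.

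The members and lists were chosen with earlier results of these data known, so lists are described by counts and medians. All members are named, with every array's value for those at an unadjusted p under 0.05, those without overlap, and the 2 of smallest p per subgroup. Other pathway genes were named if they were Acads or Mmut, had an unadjusted p under 0.05 or had the smallest p of their subgroup. Acsm2, Acsm4 and Acad8 were added after their values were seen. Samples sharing a replicate number did not deviate together (correlations of -0.32, -0.20 and -0.23), so the numbers pair nothing. Figures were drawn with matplotlib 3.10.9. Promoter sequences are from RefSeq.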

Additional observations from a re-analysis of the deposited data

How the results depend on the processing

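Alternatives were a replicate block, recentred arrays, repeated quantile normalization, 2 filters on low values, other uses of probe sets, other variance models, array weights, no moderation, a threshold of 0.1, and leaving out each array. A pair of arrays left out together was added after the data were seen. In 17 settings 0 members passed, and the lowest adjusted p of a member was 0.454. The replicate block cannot change the differences, so the members' median stayed at -0.05, and 0 genes were called. Over all genes, 12 passed with array weights, and 0 to 13 without single arrays or the pair (2 when Balb/c replicate 3 was left out, 3 when Balb/cBy replicate 1 was, 13 without the pair). Members whose groups did not overlap numbered 8 after repeated quantile normalization (8.44% of all genes), 3 to 8 without single arrays and 10 without the pair, where 12.9% to 26.9% and 43.2% of all genes did not overlap. Hibch and Hsd17b10 were among them in all of these settings, and Oxct1 in all but the repeated quantile normalization. Leaving out arrays cannot make separated groups overlap, so for these genes those settings show nothing further. Subgroup medians moved by less than 1 SD of the subgroup mean between arrays of a group. That SD (0.11 to 0.20) was larger than the medians themselves, so this is a loose limit and signs could turn within it. The median of acyl activation and conjugation went from 0.05 to -0.08 without Balb/c replicate 2.

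Direction held in all settings for 13 members, among them Hibch, Dld, Ppm1k, Hsd17b10 and Mcee, and turned in at least 1 for 18. Not every setting could turn it. The replicate block, the filters on low values, the other variance models and no moderation leave each difference as it was. The other uses of probe sets can change only Abat, Acss1 and Aldh6a1. For Hibch, Hsd17b10 and Oxct1, whose groups did not overlap, leaving out or weighting arrays cannot turn the sign either. Without single arrays or the pair, the differences ran from -0.28 to 0.096 for Bdh1, -0.21 to 0.23 for Bdh2, -0.22 to 0.14 for Acat1, -0.018 to 0.081 for Bcat2, -0.18 to 0.19 for Bckdha, -0.10 to 0.12 for Bckdhb, -0.080 to 0.036 for Dbt, -0.15 to 0.17 for Mccc1, -0.17 to 0.056 for Auh, -0.16 to 0.14 for Abat and -0.17 to 0.056 for Echs1. They ran from -0.25 to 0.059 for Pcca, -0.069 to 0.092 for Mmaa, -0.052 to 0.038 for Mmab, -0.15 to 0.39 for Acsm5, -0.042 to 0.061 for Acss1, -0.073 to 0.25 for Acss3 and -0.31 to 0.054 for Glyat. With array weights the sign turned for Bdh2 (0.0034), Bckdha (0.055), Abat (0.022), Mmaa (-0.013) and Acss1 (-0.046), after recentring for Bckdhb (0.016) and Mmab (0.015), and in the dimmer probe set for Abat (0.0020). The cause was not tested.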
